A study of Mus musculus with 12 samples.

Results

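Satellite cells from mice over 1 year old were compared with satellite cells from fetuses at E17.5, shortly before birth, the oldest and the youngest of the 4 stages profiled. The comparison used 6 of the 12 samples in the series, 3 aged and 3 fetal, assigned by their labels. All samples came from C57BL/6 mice heterozygous for a Pax7-ZsGreen reporter, which makes cells fluoresce green where the Pax7 locus is active, and all were ZsGreen-positive cells sorted after digestion of muscle with collagenase and dispase. Fetal cells came from whole forelimb and hindlimb and were pooled from 4 mice, whereas aged cells came from hindlimb and were pooled from 8 mice. The sorting gates were set by age. The samples between these ages, an adolescent group at postnatal day 21 (P21) from 6 mice and an adult group at 2 to 3 months from 8 mice, both from hindlimb, were used to place each difference along the life course. Nothing in the labels says that replicates were pooled from different animals, so a p-value here reflects how much these 3 samples per stage vary, possibly for technical reasons only. Age, limb and gate differ together between the groups, and their parts in a difference cannot be told apart. RNA was read on single-colour Affymetrix arrays, and values are log2 intensities, so that a difference of 1 is a 2-fold change. Each of 19938 genes was represented by 1 probe set, the one with the highest mean over the 12 arrays among those with exactly 1 gene symbol.

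Satellite cells are the stem cells of skeletal muscle. They lie between the muscle fibre and its basement membrane and are marked by the transcription factor Pax7. In the fetus their forerunners divide and build fibres, while in grown muscle most of them rest outside the cell cycle until injury activates them. Rest is maintained by Notch signalling, by the calcitonin receptor, by Sprouty proteins that restrain growth factor signals and by contact with the laminins and collagens of the niche. Commitment to fibre formation runs through the transcription factors Myod1 and Myog, followed by genes of fusion and contraction. Imprinted genes such as Igf2 and Dlk1 and RNA-binding proteins of the Igf2bp family mark growing fetal tissues and are usually reduced after birth.

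A gene passed when its adjusted p in limma was under 0.05 over all 19938 genes, and rose or fell is used only of genes that passed. Medians over genes lay between 6.48 and 6.54 on the 6 arrays. Olfactory and vomeronasal receptor genes, which muscle cells are not known to use, gave a measure of background. Over 1212 of their probe sets the mean on these 6 arrays was 3.79 to 3.87 except on aged replicate 1, where it was 4.30. On adult replicates 1, 2 and 3 it was 3.83, 4.46 and 4.50. A gene is described as at receptor level in a group when its mean was no higher than the receptors' 95th percentile. This was 5.39 in fetal, 5.54 in aged and 5.88 in adult cells. For such a gene the fold is a fold over a background reading. Pearson correlations across genes, which are not independent replicates, were 0.992 to 0.997 within fetal arrays, 0.984 to 0.997 within aged arrays and 0.915 to 0.922 between the groups. In both groups replicates 2 and 3 were closest to each other. Adult replicate 1, used in the spread and in the timing below, stood apart from the other adult arrays with 9.28, 6.58 and 6.44 for the division marker Mki67 on adult replicates 1, 2 and 3.

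Pax7 read 10.36, 10.50 and 10.51 on fetal replicates 1 to 3 and 11.51, 11.67 and 11.71 on aged replicates 1 to 3. The cells were sorted by a reporter of this gene with gates set by age. High Pax7 is therefore not an independent check of identity. The parts of age and gate in its difference cannot be told apart. Both groups were far above receptor level, and Pax7 rose by 1.17 (SE 0.10, adjusted p = 1.55e-06). The aged and fetal arrays did not overlap. Erythroid markers gave 0 of 8 passed genes. As these are sorted bulk samples, fewer cells of a type and less RNA per cell cannot be told apart for any gene below.

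Of the 19938 genes, 7138 (35.8%) passed, 3267 (16.4%) higher and 3871 (19.4%) lower in aged cells. At least 2-fold differences were held by 2289 of them, 1105 higher and 1184 lower, and at least 16-fold differences by 28 higher and 52 lower. The median difference over all genes was 0.02 and the median absolute difference 0.23. The 3 aged and 3 fetal arrays did not overlap for 9752 genes (48.9%), and 7038 of these passed. Of the genes that passed, 571 that rose were at receptor level in fetal cells and 561 that fell were at receptor level in aged cells. Of these 1132 genes, 366 were at receptor level in both groups. In a test against a 1.5-fold change 2152 of the 19938 genes passed, 1062 higher and 1090 lower. List counts from that test are to be read beside these.

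The adolescent and adult means were placed between the fetal and aged means of each gene that passed. The mean had first passed the midpoint by P21 for 3483 genes (48.8%), between P21 and 2 to 3 months for 2993 (41.9%) and after 2 to 3 months for 662 (9.27%). The last count was 1120 without aged replicate 1, 422 without aged replicate 2 and 449 without aged replicate 3. Rises and falls were spread differently. Of the genes that rose, 1834 had passed the midpoint by P21, 895 by 2 to 3 months and 538 later, whereas of those that fell 1649 had done so by P21, 2098 by 2 to 3 months and 124 later. For 1386 genes (19.4%) the adolescent mean lay outside the range from fetal to aged, so that the course from fetal to aged was not a single slope.

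**Figure D1:**
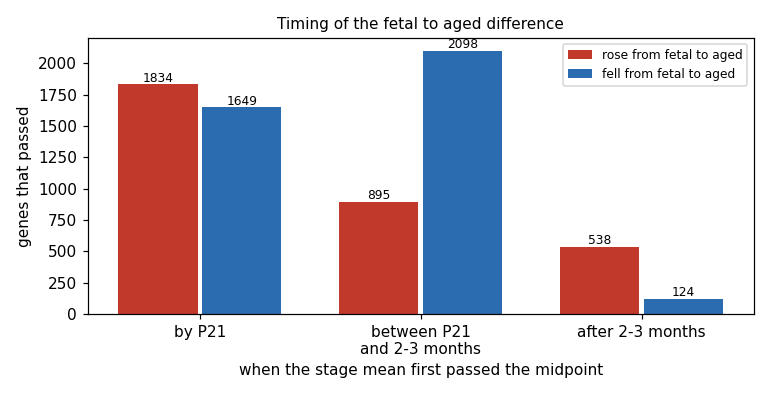
Number of genes that passed in aged against fetal cells (y axis), by the interval in which the stage mean first passed the midpoint between the fetal and aged means (x axis), for genes that rose (red) and fell (blue). Falls were most numerous between P21 and 2 to 3 months (2098 genes), and rises by P21 (1834 genes), with 538 rises and 124 falls after 2 to 3 months; the total of 662 in that interval was 422 to 1120 without 1 array at a time.

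The largest fall was that of Nrk, a protein kinase gene of the X chromosome active in embryonic muscle. It read 11.71, 11.43 and 11.66 on the fetal arrays and 4.31, 4.34 and 4.17 on the aged arrays, a fall of 7.33 (SE 0.12, adjusted p = 2.03e-12) or 161-fold. Its P21 values were 8.02, 7.58 and 7.71, between both groups, and by 2 to 3 months it was at 4.62, 4.67 and 4.70. Aged cells read Nrk at receptor level, far below every fetal array.

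Extracellular matrix genes of the embryonic interstitium were also among the 12 largest falls. Vcan, which encodes the proteoglycan versican, read 11.32, 11.21 and 11.24 in fetal and 5.94, 6.27 and 6.05 in aged cells, and fell by 5.17 (SE 0.17). Tnc, encoding tenascin C, read 11.23, 11.13 and 11.21 and 6.43, 6.00 and 5.79, and fell by 5.11 (SE 0.31). Fbn2, encoding the fetal microfibril protein fibrillin 2, fell by 4.86 (SE 0.13) to receptor level. On every P21 array these matrix genes were already nearer to aged than to fetal cells. Mstn, which encodes the muscle growth inhibitor myostatin, read 9.90, 9.97 and 9.98 in fetal and 4.94, 4.74 and 4.76 in aged cells, a fall of 5.14 (SE 0.09, adjusted p = 3.29e-12), with 5.30, 5.37 and 5.38 at P21. Its fall to receptor level was thus complete in adolescent muscle. The other falls among the 12 largest were those of AW551984 (-5.08), the cyclin E gene Ccne1 (-4.76), and the division genes Bub1, Top2a, Kif11, Depdc1a and H2ac4 (-5.19, -4.80, -4.76, -4.73 and -5.11). H2ac4 is a replication-dependent histone gene with near-identical copies, so its reading may include them.

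Among rises, Lncpint, a long noncoding RNA, read 4.48, 4.08 and 4.62 in fetal and 9.36, 10.00 and 10.00 in aged cells, a rise of 5.39 (SE 0.19, adjusted p = 6.46e-10). Akr1c14, a hydroxysteroid dehydrogenase, read 4.79, 3.96 and 4.22 and 9.41, 9.84 and 9.73, and rose by 5.34 (SE 0.20, adjusted p = 8.33e-10). Hsd11b1, which regenerates active glucocorticoid from its inactive form, read 4.72, 5.10 and 4.87 and 9.86, 9.96 and 9.90, and rose by 5.01 (SE 0.26, adjusted p = 1.66e-08). These genes were at receptor level in fetal cells and clearly above it on every aged array. Nr1d1, a clock repressor, rose from a measurable level, 6.52, 6.39 and 6.27, to 11.15, 10.96 and 11.08, a gain of 4.67 or 25.5-fold. Adh1, an alcohol dehydrogenase that also oxidises retinol, rose by 4.48 to 11.46, 11.59 and 11.54. The remaining large rises were those of Retnla (5.16), which encodes a resistin-like secreted protein, Clmn (4.66), which encodes calmin, P2ry14 (4.63), a receptor for nucleotide sugars, Lama3 (4.63), the stress-induced chaperone Hspa1a (4.57), the class II gene H2-Aa (4.44) and the clock repressor Bhlhe41 (4.42). For all 24 genes the 3 aged arrays lay apart from the 3 fetal arrays, which the naming rule required.

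**Figure D2:**
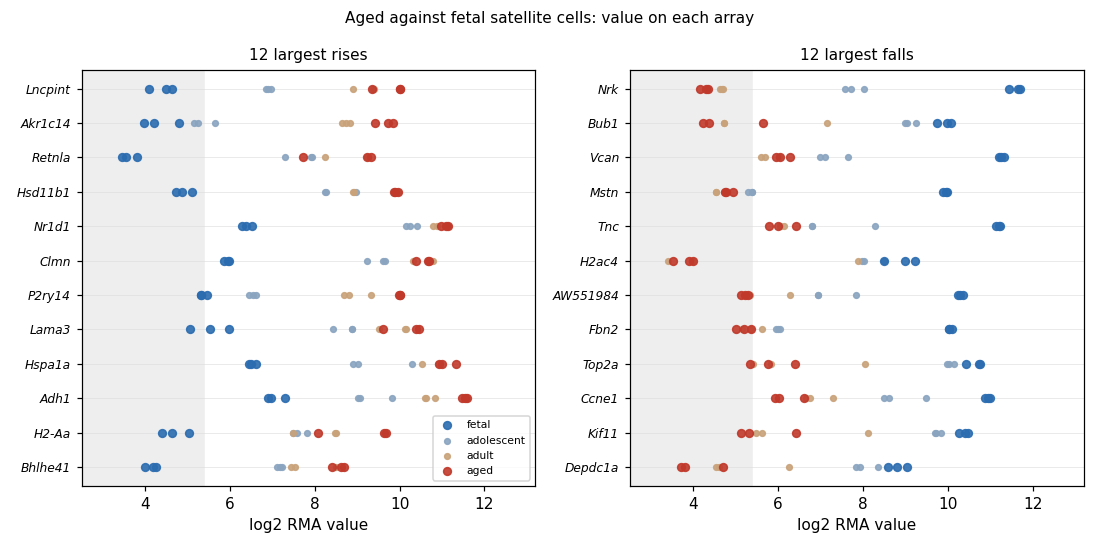
Log2 value (x axis) of the 12 largest rises (left) and 12 largest falls (right) on each of the 12 arrays; each point is 1 array, coloured by stage, and the shaded area is below the receptor level of fetal cells (5.39). Nrk read 11.71, 11.43 and 11.66 in fetal and 4.31, 4.34 and 4.17 in aged cells, and adolescent arrays of genes such as Mstn already lay beside the aged ones while those of Top2a lay beside the fetal ones.

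Genes were then read in 37 lists of pathways and cell states and in 13 lists of markers of other cell types. Beside the shares over all genes, 16.4% higher and 19.4% lower, the lists of pathways and cell states with the largest shares of falls were those of the division cycle, imprinted growth genes, muscle commitment, nucleotide synthesis and the respiratory chain. Among the same 37 lists those with the largest shares of rises were class II presentation, glucocorticoid targets, quiescence, the circadian clock, immediate early genes and antigen presentation. Among the 13 marker lists the largest share of rises was endothelial (19 of 20) and the largest share of falls was that of mast cells (7 of 11). Several lists, among them basement membrane, antioxidant genes and limb position, held rises and falls in similar numbers.

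**Figure D3:**
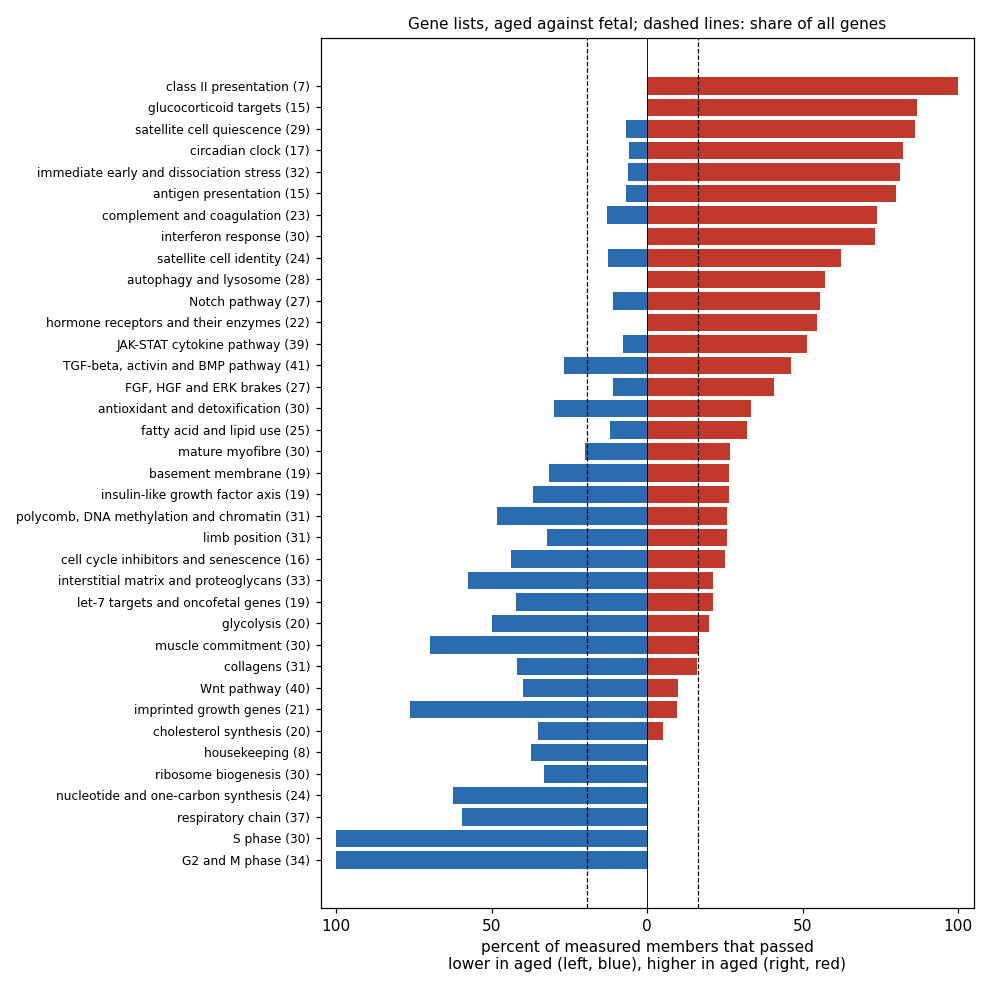
Percent of the measured members of each of the 37 lists that passed, higher in aged (red, to the right) and lower in aged (blue, to the left); the number of measured members is in parentheses and dashed lines mark the shares over all genes, 16.4% higher and 19.4% lower. S phase (30 of 30) and G2 and M phase (34 of 34) lay fully to the left, and class II presentation (7 of 7) fully to the right.

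Every measured gene of DNA replication and mitosis on the lists fell. All 30 S phase genes passed as lower, with a median difference of -2.46, and all 34 genes of G2 and M phase did so with a median of -3.94. The mean over the S phase list was 9.14 to 9.36 on fetal and 6.56 to 6.85 on aged arrays, and that over the G2 and M phase list 9.40 to 9.73 and 5.45 to 6.22. Aged replicate 1 gave the highest value of the aged arrays for Bub1 (5.64, 4.36 and 4.23 on aged replicates 1, 2 and 3), the mitotic checkpoint kinase, against 9.75, 9.99 and 10.07 on the fetal arrays. Its fall was 5.19 (SE 0.54, adjusted p = 5.95e-06). Mki67 read 10.82, 10.99 and 11.03 in fetal and 7.38, 6.46 and 6.15 in aged cells, and fell by 4.29 (SE 0.57, adjusted p = 5.52e-05). No aged array reached the fetal range for these genes. In S phase Ccne1, Cdc6, which loads the replicative helicase, Chaf1a, a chromatin assembly factor, and the transcription factor E2f2 fell, with differences of -4.76, -2.63, -2.11 and -2.16. In mitosis Cenpe, Kif2c, Bub1b and Aurka, which act on kinetochores and the spindle, fell, with differences of -4.31, -3.86, -3.41 and -3.14. For every gene of both lists the midpoint was passed between P21 and 2 to 3 months, and the adolescent list means were still 8.52 and 8.92.

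Promoters of division genes are known to carry sites for E2F factors and CCAAT boxes. RefSeq promoters (build GRCm38.p6, 250 bases before to 50 after the start) were searched on either strand for the words TTTGGCGC, TTTCCCGC, TTTGCCGC or TTTCGCGC. A match was found in a promoter of 12 of 25 S phase genes (48.0%) and of 2 of 29 G2 and M phase genes (6.90%). Among all measured genes with a promoter these were 543 of 15614 (3.48%). The word CCAAT was found on either strand in a promoter of 15 of 25 (60.0%), 21 of 29 (72.4%) and 6509 of 15614 (41.7%) genes, in the same order. The promoters of Mcm6, a subunit of the replicative helicase, and of Bub1 are shown because each had the largest fall among list members with such a word before the start. Mcm6 was picked on that ground after its values were seen; it read 9.86, 10.04 and 9.97 in fetal and 6.31, 6.30 and 6.06 in aged cells. Capitals mark the E2F words in Mcm6, which begin 110, 106 and 47 bases before the start with the first pair overlapping, and CCAAT or its reverse complement in Bub1, 68 and 42 bases before the start. Each sequence is the 250 bases before the start, read on the strand of the gene, which is the minus strand for both, at chr1:128359706-128359955 and chr2:127831860-127832109. A match is a description of letters and not of a bound site.
Mcm6: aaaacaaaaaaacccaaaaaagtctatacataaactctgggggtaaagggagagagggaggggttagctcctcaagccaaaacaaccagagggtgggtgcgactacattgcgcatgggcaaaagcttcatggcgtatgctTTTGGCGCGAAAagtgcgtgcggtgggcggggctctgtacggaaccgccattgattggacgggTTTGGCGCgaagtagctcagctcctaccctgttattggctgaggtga
Bub1: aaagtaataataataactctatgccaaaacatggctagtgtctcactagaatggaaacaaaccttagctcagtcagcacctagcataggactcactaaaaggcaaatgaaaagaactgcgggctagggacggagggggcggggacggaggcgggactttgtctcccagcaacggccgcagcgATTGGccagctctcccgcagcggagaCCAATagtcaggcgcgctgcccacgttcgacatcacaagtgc

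**Figure D4:**
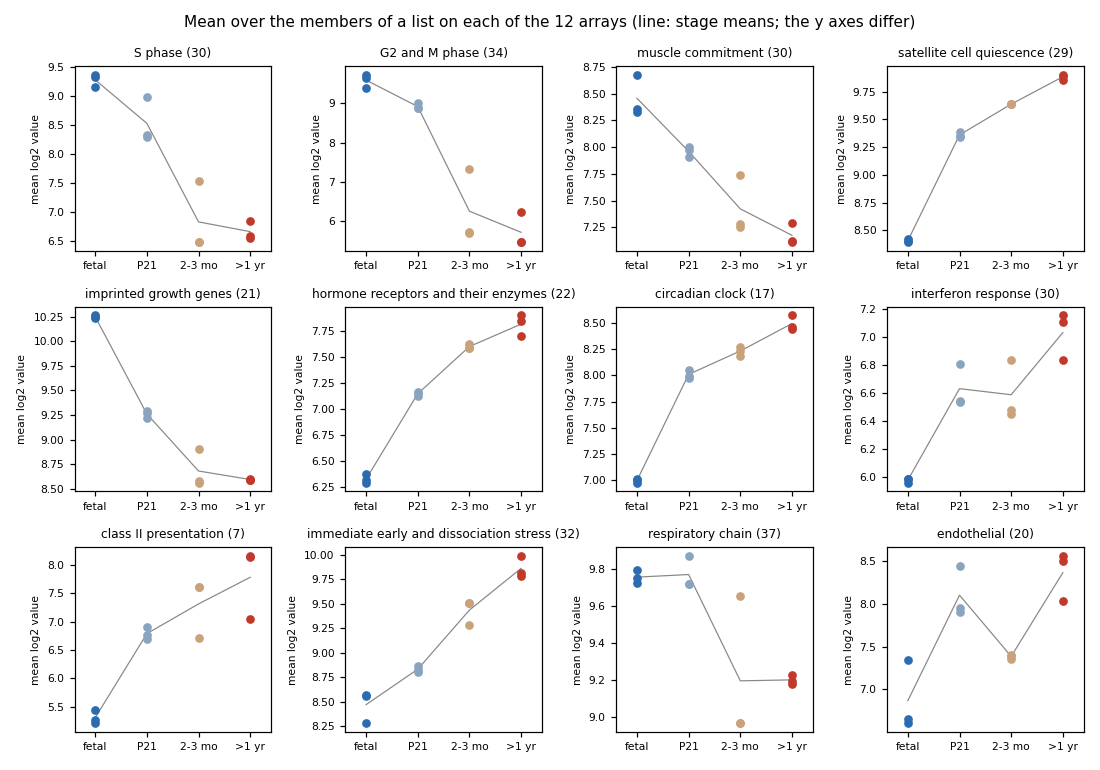
Mean log2 value over the members of 12 lists (y axes, which differ between panels) on each of the 12 arrays, by stage (x axis); points are arrays and the line joins stage means, with the number of members in parentheses. The S phase and G2 and M phase means were 8.52 and 8.92 at P21 and 6.83 and 6.25 at 2 to 3 months, and the class II mean was 5.20 to 5.45 in fetal and 7.05 to 8.16 in aged cells.

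Genes on the list of cell cycle inhibitors and senescence moved in both directions. Of 16 measured genes on this list 4 rose and 7 fell, with a median of -0.10. The list joins inhibitors with senescence-linked genes such as Lmnb1, so its counts do not describe inhibitors alone. Cdkn1a of the list was not measured. Cdkn1c, an imprinted inhibitor of cyclin-dependent kinases, read 11.76, 12.04 and 12.09 in fetal and 8.20, 7.91 and 7.97 in aged cells and fell by 3.93 (SE 0.40, adjusted p = 5.46e-06). Cdkn2a, the senescence-linked p16 and p19 locus, read 5.64, 5.78 and 5.52 in fetal and 5.91, 5.54 and 5.63 in aged cells, overlapping ranges with an adjusted p of 0.821. Cdkn1b, encoding p27, read 9.41, 9.13 and 9.29 and 9.51, 9.55 and 9.53, a difference of 0.25 with an adjusted p of 0.0711. Neither passed. Lmnb1, the nuclear lamin lost in senescent cells, fell by 3.02 (SE 0.20), and Igfbp3, an IGF-binding protein, fell by 2.57 (SE 0.23), while Trp53inp1, a p53 target, rose by 1.64 (SE 0.14).

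Most satellite cell genes and genes of rest were higher in aged cells. The midpoint was passed by P21 for 14 of the 18 identity genes and 16 of the 27 quiescence genes that passed, earlier than for the division genes. Of 24 measured identity genes 15 rose and 3 fell, with a median of 0.53. Sdc4, encoding syndecan 4, read 7.98, 7.83 and 7.82 in fetal and 10.69, 11.00 and 10.92 in aged cells, and rose by 2.99 (SE 0.13, adjusted p = 2.30e-09). Chrdl2, encoding a BMP-binding protein, rose by 3.02 from 7.46, 7.55 and 7.52 to 10.57, 10.44 and 10.58. Fetal and aged arrays did not overlap for either, and both had made most of this rise by P21. Myf5, the myogenic factor of satellite cells, rose by 1.43 and the intermediate filament gene Des by 1.36, and Pax3 by 0.52 from 6.01, 6.25 and 6.34 to 6.60, 6.79 and 6.77.

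Of 29 measured quiescence genes 25 rose and 2 fell, with a median of 1.34, and the list mean went from 8.39 to 8.42 on fetal arrays to 9.86 to 9.90 on aged arrays. Calcr, the calcitonin receptor that holds satellite cells at rest, read 9.02, 9.04 and 9.01 and 10.89, 11.10 and 11.05, a rise of 1.99 (SE 0.09, adjusted p = 3.59e-09). Spry1, a brake on growth factor signalling, read 10.08, 10.13 and 10.07 and 11.32, 11.45 and 11.52, a rise of 1.34 (SE 0.09, adjusted p = 1.76e-07). For both genes the fetal arrays differed little among themselves and lay wholly below the aged ones. Bcl6, a transcriptional repressor, rose by 3.25, the glucocorticoid and thyroid hormone target Klf9 by 3.90, the phosphatase gene Dusp1 by 2.20 and Klf4 by 1.88. Ptprb of this list is also a marker on the endothelial list and rose by 3.10; the part of vessel cells in the rises of this list was not tested. Dusp1 and Klf4 also belong to the list of immediate early genes, which dissociation of muscle is known to induce.

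The microRNA gene Mir489 lies within Calcr by RefSeq coordinates and is known to hold satellite cells at rest. Its precursor probe set, picked after its values were seen, read 4.46, 4.06 and 4.19 on the fetal arrays and 6.58, 7.88 and 7.52 on the aged arrays. The difference was 3.09 (SE 0.27, adjusted p = 1.20e-06), from receptor level in fetal cells, with aged replicate 1 the lowest of the aged arrays. The array reads precursor or host RNA and not the mature microRNA. The mature sequence is shown with its seed, bases 2 to 8, in capitals, from RefSeq (GRCm38.p6, chr6:3721922-3721944, minus strand).
miR-489-3p: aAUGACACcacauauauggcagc

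Genes of fibre formation moved the other way. Of 30 measured muscle commitment genes 5 rose and 21 fell, with a median of -1.14. Myod1, the determination factor, read 10.05, 9.92 and 9.88 in fetal and 10.63, 10.26 and 10.39 in aged cells and rose by 0.48, whereas Myog, which drives differentiation, read 9.38, 9.34 and 9.36 and 7.38, 6.81 and 6.62 and fell by 2.43 (SE 0.44, adjusted p = 7.39e-04). The call on Myod1 was lost when replicates 2 and 3 were averaged (adjusted p = 0.058 in limma) and in the test against a 1.5-fold change. Myog did not fall steadily, since the P21 arrays read 9.64, 10.33 and 10.33, above the fetal arrays, and the adult arrays 9.50, 7.32 and 7.49. The embryonic myosin gene Myh3 read 9.36, 8.25 and 8.42 and 4.61, 3.93 and 4.41, and fell by 4.36 to receptor level. Actc1, the fetal cardiac actin gene, fell by 4.24, the embryonic light chain gene Myl4 fell by 3.11, the fetal acetylcholine receptor subunit gene Chrng fell by 2.21 and the slow troponin gene Tnni1 fell by 2.17.

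Genes of mature fibres did not move as a group. Of 30 measured 8 rose and 6 fell, with a median of 0.08, and without fetal replicate 1 the number that rose was 13. The fast genes Actn3 and Myh4 rose by 2.17 and 1.55, while the giant sarcomere genes Ttn and Neb fell, with differences of -2.67 and -2.31. Fetal replicate 1 gave the highest fetal value for Ttn (9.76, 9.13 and 9.13) and Neb (10.36, 9.82 and 9.84), against 6.53, 6.82 and 6.67 and 7.59, 7.83 and 7.69 on the aged arrays. The list means were 8.01 on fetal replicate 1 and 7.02 to 7.12 on the other fetal arrays, against 7.39 to 7.50 in aged cells, so the groups overlapped.

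Imprinted growth genes fell in most cases. Of 21 measured 16 fell and 2 rose, with a median of -0.93, and the list mean went from 10.24 to 10.27 on fetal arrays to 8.59 to 8.60 on aged arrays. Dlk1, a Notch-like membrane protein of growing muscle, read 12.10, 11.97 and 11.98 and 7.57, 7.63 and 7.72, and fell by 4.38 (SE 0.21, adjusted p = 9.73e-09) or 20.8-fold. Nnat, which encodes neuronatin, and Asb4, a ubiquitin ligase adaptor, fell, with differences of -4.55 and -4.10 to receptor level, and the zinc finger gene Plagl1 fell by 3.14. Igf2, the fetal growth factor, read 12.01, 12.05 and 12.05 and 10.64, 10.44 and 10.63, and fell by 1.47 (SE 0.11, adjusted p = 3.71e-07). It did not fall steadily. The adult arrays read 10.23, 9.91 and 9.85, and aged cells were 0.57 above them (SE 0.11, adjusted p = 0.0141).

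Elsewhere in the insulin-like growth factor axis 5 of 19 measured genes rose and 7 fell, with a median of -0.19. Igfbp2, a binding protein, read 7.33, 7.77 and 7.73 in fetal cells and fell by 2.13 to receptor level, and Irs2, an adaptor of the insulin receptor, rose by 1.31. The list of let-7 targets and oncofetal genes was divided, with 4 of 19 higher, 8 lower and a median of -0.09. Igf2bp3 and Igf2bp1, RNA-binding proteins of fetal tissue, read 8.94, 8.61 and 8.79 and 8.17, 8.06 and 8.15 in fetal cells and fell, with differences of -3.86 and -2.90, both to receptor level and both already by P21. Hmga2, a chromatin protein of young stem cells, read 7.68, 7.14 and 7.58 and 6.56, 5.92 and 5.94, and fell by 1.33 (SE 0.18, adjusted p = 6.17e-05). Ccnd2 fell by 1.73, but Myc, another let-7 target, rose by 1.46. Lin28b, the repressor of let-7 maturation, read 3.81, 4.14 and 3.92 and 4.21, 3.86 and 3.73, at receptor level in both groups, and did not pass (adjusted p = 0.941).

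The let-7 microRNAs repress several of these genes through a shared seed. Of 10 measured let-7 and miR-98 precursor probe sets 3 rose, 0 fell and 7 did not pass. Of the latter Mir98, Mirlet7a-1, Mirlet7f-1, Mirlet7f-2 and Mirlet7g were at receptor level in both groups. Those that rose were Mirlet7a-2 (by 1.98), Mirlet7e (by 1.42) and Mirlet7c-1 (by 1.22), which were picked after their values were seen; as for Mir489, the mature forms were not read. The aged values of Mirlet7a-2 were 5.21, 6.34 and 6.44 against fetal values of 4.15, 4.07 and 3.83. Those of Mirlet7c-1 were 5.70, 6.94 and 6.93 against 5.38, 4.95 and 5.57. Both were at receptor level in fetal cells and lowest on aged replicate 1 among the aged arrays. On that array Mirlet7a-2 was below the aged receptor level of 5.54. Those of Mirlet7e were 7.70, 7.28 and 7.48 against 6.18, 5.99 and 6.02. The RefSeq sequences of let-7a-5p (from Mirlet7a-1, which gives the same mature microRNA), let-7c-5p and let-7e-5p are shown with the seed in capitals, which is identical among them.
let-7a-5p: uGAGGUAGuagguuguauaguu
let-7c-5p: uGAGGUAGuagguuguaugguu
let-7e-5p: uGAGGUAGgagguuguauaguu

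Receptors and enzymes of hormone action rose in aged cells, with 12 of 22 measured genes higher, 0 lower and a median of 0.66. Esr1, the estrogen receptor, read 5.48, 5.65 and 5.38 in fetal and 9.67, 9.93 and 9.97 in aged cells, a rise of 4.35 (SE 0.11, adjusted p = 4.82e-11) or 20.4-fold. Its adolescent arrays read 10.00, 10.09 and 10.16, as high as the aged arrays. Tshr, the thyrotropin receptor, read 6.11, 6.10 and 6.03 and 10.09, 10.49 and 10.55 and rose by 4.30 (SE 0.17, adjusted p = 1.55e-09). The receptors differed in timing, since Tshr was at 6.87, 7.47 and 7.52 at P21 and Esr1 had completed its rise by then. Akr1c14 and Hsd11b1, described above, are the enzymes of the list with the largest rises.

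Targets of glucocorticoids rose in 13 of 15 measured cases, with 0 lower and a median of 1.58. Cebpd, a stress-induced transcription factor, read 5.85, 5.91 and 5.65 and 10.30, 9.73 and 9.82, and rose by 4.14 (SE 0.14, adjusted p = 3.46e-10). The kinase gene Sgk1 read 6.43, 6.40 and 6.38 and 9.16, 9.17 and 9.24 and rose by 2.79. Zbtb16 rose by 1.70 and Lcn2 by 1.23, the latter losing its call when replicates 2 and 3 were averaged. Fetal and aged arrays did not overlap for 14 of the 15, beside 48.9% of all genes.

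The circadian clock list held 14 rises and 1 fall among 17 measured genes, with a median of 1.14. The nuclear receptors Nr1d2 and Rora rose by 2.20 and 1.41, from 6.92, 7.10 and 6.81 and 7.74, 7.90 and 8.01 to 9.25, 9.04 and 9.14 and 9.19, 9.39 and 9.31. Bhlhe41, a repressor of clock genes, read 4.26, 4.00 and 4.18 in fetal cells, at receptor level, and 8.40, 8.69 and 8.61 in aged cells, a rise of 4.42 (SE 0.22, adjusted p = 1.01e-08). Activators and repressors of the clock both stood among the rises. The E-box word CACGTG, which the clock activators bind, was found in a promoter of 5 of 15 genes of the list (33.3%). Among all measured genes with a promoter these were 1483 of 15614 (9.50%). The promoter of Bhlhe41, the list member with the largest rise among those holding the word before the start, is shown with it in capitals, 153 bases before the start (GRCm38.p6, chr6:145865421-145865670, minus strand).
Bhlhe41: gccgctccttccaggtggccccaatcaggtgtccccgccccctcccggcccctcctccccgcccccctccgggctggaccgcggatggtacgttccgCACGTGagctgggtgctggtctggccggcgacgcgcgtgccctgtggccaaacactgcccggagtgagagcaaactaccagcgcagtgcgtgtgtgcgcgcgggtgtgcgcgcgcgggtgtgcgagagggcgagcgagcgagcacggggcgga

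Genes of cytokine signalling through JAK and STAT proteins rose in part. Of 39 measured genes 20 rose and 3 fell, with a median of 0.35. In the test against a 1.5-fold change 7 of the 39 were higher, beside 1062 of all 19938 genes. Osmr, the oncostatin M receptor, read 6.16, 5.41 and 5.57 and 8.40, 8.73 and 8.71 and rose by 2.90 (SE 0.21, adjusted p = 3.05e-07). Ifngr1, the interferon gamma receptor, read 8.08, 7.96 and 7.97 and 9.51, 9.73 and 9.68 and rose by 1.63 (SE 0.12, adjusted p = 2.20e-07). Jak2 rose by 0.41, a call lost in several alternatives. Stat3 read 9.29, 9.18 and 9.15 and 9.51, 9.46 and 9.48 and did not pass (adjusted p = 0.0515). Socs3, the feedback inhibitor of this pathway, read 8.66, 9.36 and 9.36 in fetal, 9.68, 9.90 and 9.80 in adult and 10.88, 10.37 and 10.59 in aged cells, rising by 1.49 (SE 0.18, adjusted p = 2.42e-05) from fetal and by 0.82 (SE 0.18, adjusted p = 0.0266) from adult cells. The aged arrays thus lay above both younger groups for Socs3.

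Immediate early and stress genes rose in 26 of 32 measured cases, with 2 lower and a median of 1.41. The list mean was 8.28 to 8.57 on fetal and 9.78 to 9.99 on aged arrays, and aged replicate 1 was the highest. Junb, a subunit of AP-1, read 7.39, 8.03 and 8.17 and 10.48, 10.52 and 10.55 and rose by 2.65 (SE 0.16, adjusted p = 7.17e-08). Hspa1a rose from 6.61, 6.51 and 6.44 to 11.33, 10.93 and 11.01. Its near-identical relative Hspa1b was not measured, and the reading of Hspa1a may include it. Egr2 was raised by 1.11, but aged replicate 1 (9.38, 7.84 and 7.84 on the 3 aged arrays) set much of this, and the rise was 0.60 without it. Dissociation of tissue is known to induce genes of this list, and its part in these rises was not tested.

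Interferon response genes rose in 22 of 30 measured cases, with 0 lower and a median of 0.85, and the list mean went from 5.96 to 5.99 on fetal arrays to 6.84 to 7.16 on aged arrays. Ifih1, a sensor of viral RNA, read 5.77, 5.70 and 5.69 and 7.92, 8.29 and 8.19 and rose by 2.41 (SE 0.16, adjusted p = 1.02e-07). Parp14, Dtx3l and Parp9, interferon-induced genes of ADP-ribosylation and ubiquitylation, rose by 2.88, 1.94 and 1.69. The fetal Parp14 arrays, 5.31, 5.08 and 4.94, were at receptor level. Promoters were searched on either strand for GAAA repeated after a gap of any 2 bases, as in interferon response elements. It was found in a promoter of 13 of 23 genes of the list (56.5%) and of 2 of 11 antigen presentation genes (18.2%). Among all measured genes with a promoter these were 607 of 15614 (3.89%). The promoter of Ifit1, an interferon-induced RNA-binding protein, was picked on the same ground as the others after its values were seen. It is shown with the words in capitals, 104 and 85 bases before the start (GRCm38.p6, chr19:34640639-34640888, plus strand). Ifit1 read 4.33, 4.72 and 4.42 in fetal and 6.37, 6.88 and 6.72 in aged cells.
Ifit1: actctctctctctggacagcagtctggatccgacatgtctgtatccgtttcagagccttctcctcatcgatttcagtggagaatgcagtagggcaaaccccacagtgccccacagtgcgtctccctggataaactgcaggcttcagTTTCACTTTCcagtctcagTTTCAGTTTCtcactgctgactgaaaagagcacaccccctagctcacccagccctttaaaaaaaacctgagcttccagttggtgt

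Genes that load and present antigen rose alongside. Of 15 measured class I presentation genes 12 rose and 1 fell, with a median of 1.21. The peptide transporter genes Tap1 and Tap2 rose by 1.34 and 1.58, and Tapbp, which encodes tapasin, by 1.55 from 7.36, 7.37 and 7.41 to 8.85, 8.90 and 9.04. H2-Q4, a class I heavy chain gene with near-identical relatives, rose by 3.29 from receptor level, and its reading may include those relatives. The groups did not overlap for 14 of the 15 genes, beside 48.9% of all genes.

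Class II genes, which professional antigen-presenting cells express, rose in 7 of 7 measured cases, with a median of 2.26. H2-Ab1 read 5.02, 5.20 and 5.24 in fetal and 7.98, 9.73 and 9.63 in aged cells, and rose by 3.96 (SE 0.40, adjusted p = 4.65e-06). Cd74, the invariant chain, read 4.92, 4.92 and 4.99 and 8.00, 9.65 and 9.69 and rose by 4.17 (SE 0.45, adjusted p = 8.26e-06). H2-Aa and H2-Eb1 rose by 4.44 and 2.26. Aged replicate 1 was the lowest aged array for each of these 4 genes, while remaining above the fetal arrays. Of 22 macrophage markers 6 rose and 2 fell, with a median of -0.02 and 10 differences above 0, and the list mean was 5.98 to 6.05 on fetal arrays and 5.93, 6.48 and 6.50 on aged replicates 1 to 3. Lyz2, the lysozyme of myeloid cells, read 6.66, 6.76 and 6.87 and 8.90, 9.97 and 10.02, a rise of 2.87 (SE 0.29, adjusted p = 5.15e-06), and Ccr2, Mpeg1 and Itgam rose by 1.52, 1.47 and 0.80 from receptor level. The calls on Mpeg1 and Itgam were lost when replicates 2 and 3 were averaged, and with values floored at 6 neither of them nor Ccr2 passed. The macrophage markers that fell were Lyve1 and Mrc1, by 0.66 and 0.72 (adjusted p = 0.0169 and 0.0480), picked after their values were seen. For Lyz2, Ccr2, Mpeg1 and Itgam aged replicate 1 was also the lowest aged array. Lymphocyte and plasma cell markers rose in 5 of 19 cases and fell in 1, with list means of 5.17 to 5.30 and 5.39 to 5.73. The part of immune cells in the class II rise was not tested.

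Complement and coagulation genes rose in 17 of 23 measured cases and fell in 3, with a median of 1.08. Serping1, the C1 inhibitor, read 9.28, 9.04 and 9.06 and 11.78, 11.73 and 11.85 and rose by 2.66 (SE 0.10, adjusted p = 1.20e-09). C1ra, a protease of the first complement component, rose by 1.87 and C7, of the membrane attack complex, by 1.55, both from receptor level. Plau, the urokinase plasminogen activator, rose by 1.52.

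Markers of vessels were higher in aged cells. Of 20 measured endothelial markers 19 rose and 0 fell, with a median of 1.45. Their mean was 7.35, 6.66 and 6.60 on fetal replicates 1 to 3 and 8.04, 8.56 and 8.50 on aged replicates 1 to 3, with stage means of 8.10 at P21 and 7.39 at 2 to 3 months. Ptprb read 7.13, 6.31 and 6.00 and 8.88, 9.96 and 9.89, Flt1, a VEGF receptor, rose by 2.82, and Tie1 and Sox18 rose by 1.49 and 1.40. Of 15 smooth muscle and pericyte markers 8 rose and 3 fell, with a median of 1.06. Vtn, which encodes vitronectin, read 5.76, 5.80 and 5.65 and 10.17, 9.95 and 9.97, a rise of 4.29 (SE 0.10, adjusted p = 3.12e-11), Steap4 and Abcc9 rose by 2.04 and 2.04, and Cspg4 fell by 1.59. No endothelial or pericyte list mean of an aged array fell in the fetal range.

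Notch genes are shared between satellite cells and vessels. Of 27 measured 15 rose and 3 fell, with a median of 0.33. The target Hes1 read 8.01, 7.88 and 8.00 and 10.16, 9.84 and 9.89 and rose by 2.00 (SE 0.10, adjusted p = 1.53e-08). Dll4, a ligand of endothelial cells, rose by 1.54, from 6.28, 6.16 and 5.98 to 7.38, 7.73 and 7.92, and the Notch antagonist Numb by 1.25. Lfng, a glycosyltransferase that modifies Notch receptors, read 9.59, 9.79 and 9.83 and 6.62, 6.99 and 7.15 and fell by 2.82 (SE 0.14, adjusted p = 9.73e-09). These are single genes and do not describe all ligands, targets and modifiers of the list. The part of endothelial RNA in the Notch list was not tested.

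The Wnt list held more falls than rises, with 16 of 40 measured genes lower, 4 higher and a median of -0.21. Sfrp2, a secreted Wnt modulator of fetal myogenic cells, read 9.50, 9.53 and 9.55 and 6.34, 6.51 and 6.53 and fell by 3.07 (SE 0.20, adjusted p = 9.26e-08). The receptor gene Fzd2 fell from 8.44, 8.52 and 8.61 to 6.58, 6.42 and 6.55 and Lgr5 fell by 1.64 to receptor level, while Ror1 rose by 1.43. By the test against a 1.5-fold change 4 of the 40 Wnt genes were lower, beside 1090 of all 19938 genes.

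The TGF-beta, activin and BMP list held 19 rises and 11 falls among 41 measured genes, with a median of 0.30. The ligand gene Mstn fell as given above, and Bmp7 read 8.50, 8.44 and 8.48 and 6.19, 6.16 and 6.29 and fell by 2.26 (SE 0.11, adjusted p = 9.73e-09). The co-receptor gene Tgfbr3 rose by 2.23. Id3, a target of BMP signals, read 7.23, 7.53 and 7.54 and 10.75, 10.50 and 10.59, a rise of 3.18 (SE 0.11, adjusted p = 4.69e-10), and aged cells also exceeded adult cells by 0.84 (SE 0.11, adjusted p = 0.00146). The ligand genes named here were thus lower and the target higher than in fetal cells.

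Of 27 measured FGF, HGF and ERK brake genes 11 rose and 3 fell, with a median of 0.12. In the test against a 1.5-fold change 3 of the 27 were higher, beside 1062 of all 19938 genes. Fgf10, a ligand of the embryonic limb, read 7.19, 7.23 and 7.23 and 4.86, 4.55 and 4.47, and fell by 2.59 (SE 0.13, adjusted p = 1.49e-08) to receptor level. The receptor gene Fgfr1 rose by 1.16, from 10.34, 10.42 and 10.42 to 11.53, 11.55 and 11.57.

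Structural matrix genes fell in larger numbers than they rose. Of 31 measured collagen genes 13 fell and 5 rose, with a median of -0.22. Col1a2, a chain of the main fibrillar collagen, read 10.46, 10.24 and 10.26 and 7.27, 7.47 and 7.38, and fell by 2.95 (SE 0.13, adjusted p = 3.92e-09). Col6a3, Col18a1 and Col6a2 fell, with differences of -2.19, -1.82 and -1.41. Of 33 interstitial matrix genes 19 fell and 7 rose, with a median of -0.67. Fbln1, encoding fibulin 1, fell by 2.49, whereas Prelp, a small leucine-rich proteoglycan, read 7.73, 7.34 and 7.36 and 11.39, 11.31 and 11.36 and rose by 3.88 (SE 0.14, adjusted p = 7.67e-10). Fibroblast and fibro-adipogenic markers fell in 8 of 18 cases and rose in 3, with a median of -0.37. Their list mean was 8.54 on fetal replicate 1, 7.88 to 7.91 on the other fetal arrays and 7.73 to 7.90 on aged arrays, so the groups overlapped. Among them Dpt and Gsn rose by 1.99 and 1.91, and Lox and Clec3b fell, with differences of -1.72 and -1.11. The part of fibroblast RNA in the matrix falls was not tested.

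Genes of laminin chains, which build the basement membrane, moved in both directions. Of 19 measured basement membrane genes 5 rose and 6 fell, with a median of -0.10. Lamb1 read 10.62, 10.74 and 10.80 and 6.84, 7.28 and 7.17 and fell by 3.62 (SE 0.13, adjusted p = 6.46e-10), and the chain genes Lama4 and Lama5 fell, with differences of -2.47 and -1.76. Lama3 read 5.98, 5.52 and 5.06 and 9.61, 10.45 and 10.39 and rose by 4.63 (SE 0.27, adjusted p = 4.24e-08). Lamb2 and Lamc3, picked after their values were seen, rose by 1.03 and 0.87. Among the chains named here, beta 1 was down with beta 2 up, and alpha 4 and alpha 5 were down with alpha 3 up. The other chains of the list are not described. Lama4 was lowest in adult cells, 5.92, 6.27 and 6.29, and aged cells lay 1.00 above them (SE 0.17, adjusted p = 0.00621).

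Opposite moves within a family were also measured among chromatin genes. Of 31 measured polycomb, DNA methylation and chromatin genes 15 fell and 8 rose, with a median of -0.20. Dnmt1, the methyltransferase that copies DNA methylation at replication, read 9.80, 9.84 and 9.96 and 7.84, 7.82 and 7.72 and fell by 2.07 (SE 0.15, adjusted p = 2.54e-07). Ezh1, a polycomb methyltransferase of non-dividing cells, read 8.19, 7.90 and 7.91 and 9.44, 9.71 and 9.71 and rose by 1.62, while its relative Ezh2 fell by 1.58, from 10.51, 10.46 and 10.48 to 8.97, 8.96 and 8.79. Cbx7 rose by 2.88, while its relative Cbx2 fell by 0.74. Ezh2 and Cbx2 were picked after their values were seen. Jarid2, a polycomb partner, rose from 8.52, 8.32 and 8.34 to 9.75, 9.99 and 9.94 (SE of the difference 0.12).

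Glycolytic genes also moved in both directions, with 4 of 20 measured genes higher, 10 lower and a median of -0.36. Pfkl, a phosphofructokinase gene, read 8.57, 8.67 and 8.71 and 6.81, 6.87 and 6.97 and fell by 1.76 (SE 0.10, adjusted p = 3.02e-08), while its relative Pfkp read 6.55, 6.34 and 6.24 and 8.10, 8.37 and 8.29 and rose by 1.88 (SE 0.12, adjusted p = 1.22e-07). Ldhb, a lactate dehydrogenase gene, rose by 1.04 and its relative Ldha, picked after its values were seen, fell by 0.98. The enzyme genes Tpi1 and Pgk1 fell, with differences of -1.64 and -1.51. Pgk1 is also on the housekeeping list, on which 3 of 8 genes fell and 0 rose, with a median of -0.28; Ppia and Sdha fell, with differences of -0.35 and -0.31 and lost the call in most leave-one-out fits.

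**Figure D5:**
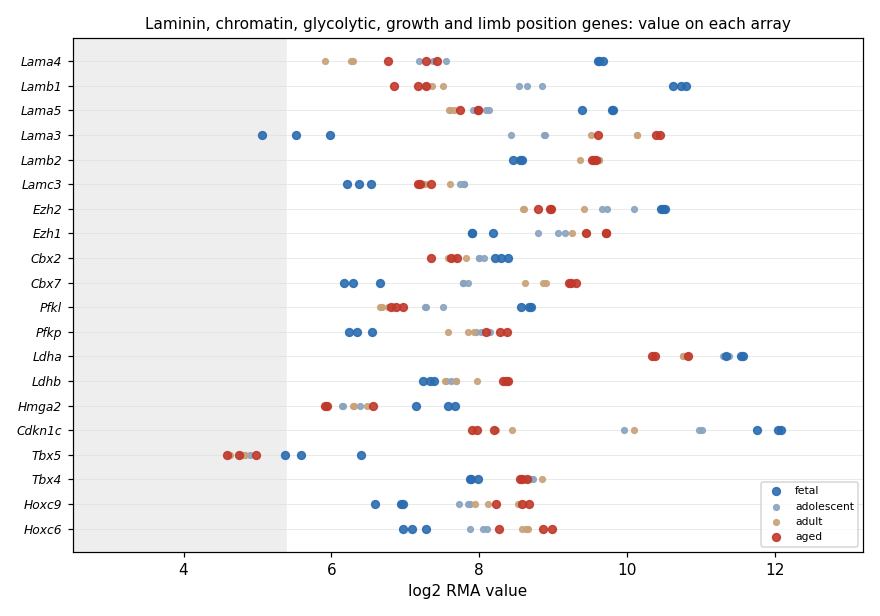
Log2 value (x axis) of laminin, polycomb, glycolytic, growth and limb position genes on each of the 12 arrays; each point is 1 array, coloured by stage, and the shaded area is below the receptor level of fetal cells (5.39). Aged arrays lay below fetal arrays for Lamb1 (by -3.62) and Pfkl (by -1.76) and above them for Lamb2 (by 1.03) and Pfkp (by 1.88). Lamb2, Lamc3, Ezh2, Cbx2 and Ldha were picked after their values were seen, and other members of these lists are not shown.

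Respiratory chain genes fell in 22 of 37 measured cases and rose in 0, with a median of -0.57. By the test against a 1.5-fold change 2 of the 37 were lower, beside 1090 of all 19938 genes. Sdhd, a subunit of succinate dehydrogenase, read 9.35, 9.44 and 9.46 and 8.16, 8.12 and 7.96 and fell by 1.33 (SE 0.15, adjusted p = 1.66e-05). Uqcrc2, Atp5a1 and Ndufb3, subunits of complex III, ATP synthase and complex I, fell, with differences of -0.89, -0.87 and -0.79. The list mean at P21, 9.77, lay within the fetal range of 9.73 to 9.80, and the aged arrays were at 9.18 to 9.23. For 21 of the 22 the midpoint was passed between P21 and 2 to 3 months, the interval of the division genes.

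Among genes of biosynthesis, nucleotide and one-carbon synthesis had 15 of 24 measured genes lower, 0 higher and a median of -0.62. Psat1, an enzyme of serine synthesis, read 10.15, 10.33 and 10.38 and 7.98, 7.66 and 7.44 and fell by 2.59 (SE 0.28, adjusted p = 9.63e-06). The pyrimidine genes Umps and Ctps fell, with differences of -1.66 and -1.44, and the folate enzyme gene Mthfd1l fell by 1.24. Ribosome biogenesis genes fell in 10 of 30 cases and rose in 0, with a median of -0.25. The test against a 1.5-fold change called 1 of the 30 lower, beside 1090 of all 19938 genes. Gar1, Fbl, Nolc1 and Nop2, which act in the nucleolus, fell, with differences of -1.04, -0.85, -0.56 and -0.55. Cholesterol synthesis genes fell in 7 of 20 cases and rose in 1, with a median of -0.28 and 0 lower by the test against a 1.5-fold change. Fdps, Stard4, Dhcr7 and Fdft1 of that list fell, with differences of -1.04, -0.81, -0.63 and -0.47.

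Genes of lipid uptake and breakdown were higher in part. Of 25 measured 8 rose and 3 fell, with a median of 0.09. Lpl, which releases fatty acids from lipoproteins, read 8.35, 8.36 and 8.37 and 10.00, 10.35 and 10.26 and rose by 1.85 (SE 0.11, adjusted p = 4.36e-08). Cd36, a fatty acid transporter, rose by 2.84, the fatty acid binding protein gene Fabp4 by 1.72 and Cpt1a, which admits fatty acids to mitochondria, by 1.42. Cd36 and Fabp4 are also expressed in capillaries, whose markers rose as given above. The part of vessel cells in these rises was not tested.

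Antioxidant and detoxification genes were divided, with 10 of 30 measured genes higher, 9 lower and a median of -0.07. Gpx3, a secreted glutathione peroxidase, read 8.03, 8.10 and 7.99 and 12.20, 12.30 and 12.27 and rose by 4.22 (SE 0.09, adjusted p = 1.89e-11) or 18.6-fold. Sod3, the extracellular superoxide dismutase, read 5.57, 5.83 and 5.70 and 8.34, 8.20 and 8.37 and rose by 2.60 (SE 0.13, adjusted p = 9.73e-09). Gstm1, which has near-identical relatives, rose by 2.42, and Txnip, an inhibitor of thioredoxin, by 2.06. Autophagy and lysosome genes rose in 16 of 28 cases and fell in 0, with a median of 0.31. The test against a 1.5-fold change called 5 of the 28 higher, beside 1062 of all 19938 genes. Gabarapl1 and Map1lc3a, which coat autophagosomes, rose by 1.83 and 1.26, and the lysosomal protease genes Ctsl and Ctsb by 1.01 and 0.87.

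Genes of limb position differed between the groups, whose limbs also differed. Tbx5, a factor of the forelimb, read 6.40, 5.38 and 5.59 in fetal and 4.98, 4.76 and 4.59 in aged cells and fell by 1.01 to receptor level, and Tbx4, a factor of the hindlimb, read 7.99, 7.89 and 7.88 and 8.57, 8.56 and 8.65 and rose by 0.67 (SE 0.10, adjusted p = 1.02e-04). Only the fetal samples contained forelimb. Of 31 measured limb position genes 8 rose and 10 fell, with a median of 0.10. Hoxc8, Hoxc9, Hoxc6 and Hoxc5 rose by 1.81, 1.67, 1.59 and 1.29. Hoxc8 read 6.58, 6.93 and 6.94 in fetal and 8.48, 8.65 and 8.75 in aged cells. The limb and the age of these samples cannot be told apart.

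Few differences from fetal cells also appeared in the last step. Of 19938 genes 697 (3.5%) passed in aged against adult cells, and 496 (2.49%) passed in both comparisons with the same sign, 480 higher and 16 lower; another 68 passed with opposite signs. The comparisons share the aged arrays, and the count with the same sign rested on single arrays. It was 1245 without aged replicate 1, 166 without aged replicate 2, 169 without aged replicate 3 and 1770 without adult replicate 1. Grin2a, a subunit of the NMDA glutamate receptor, read 4.45, 4.47 and 4.64 in fetal, 5.66, 6.22 and 6.06 in adult and 7.51, 8.46 and 8.31 in aged cells, above adult cells by 2.12 (SE 0.22, adjusted p = 5.02e-04). Spock3, encoding a testican proteoglycan, read 4.61, 4.64 and 4.60, 6.96, 5.96 and 6.13 and 7.83, 8.46 and 8.43 in the same order, above adult cells by 1.89 (SE 0.23, adjusted p = 0.00103). For both genes aged arrays lay above all younger arrays. The receptors' 95th percentile was 6.13 on adult replicate 2 and 6.13 on adult replicate 3. Both genes read near that level there, so their differences from adult cells are partly differences from background. Rassf9, Anks1b and Calhm5 exceeded adult cells by 1.89, 1.86 and 1.79. Jchain, the joining chain of antibodies, read 3.92, 3.82 and 3.95 in fetal and 4.54, 8.50 and 8.42 in aged cells, so that aged replicate 1 stood at receptor level and its rise of 3.26 rested on the other aged arrays. Among falls, Actc1 read 10.50, 9.05 and 8.91 in adult and 8.27, 7.67 and 7.57 in aged cells, a difference of -1.65 (SE 0.35, adjusted p = 0.0241). The mitotic kinase gene Pbk, Col26a1, Trmt112, Fhl3 and Tubb4a differed from adult cells by -0.81, -0.78, -0.69, -0.68 and -0.61.

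Falls outnumbered rises among the markers of mast cells, fat, tendon and skin, as among the fibroblast markers given above. In that order the shares of falls were 63.6%, 50%, 40% and 25%, beside 19.4% over all genes. The shares of rises were 18.2%, 30%, 13.3% and 8.33%, beside 16.4%. The share of falls among the few skin markers was thus near that over all genes. Of 11 mast cell markers 7 fell and 2 rose, with list means of 6.17 to 6.46 on fetal and 5.61 to 5.71 on aged arrays. Cpa3, the mast cell carboxypeptidase, read 9.79, 10.04 and 9.98 and 4.87, 5.77 and 5.64, a fall of 4.51 (SE 0.21, adjusted p = 5.92e-09), Hdc and Tpsb2 fell, with differences of -1.59 and -1.32, and Srgn, which other blood and vessel cells express too, rose by 2.26. Of 10 fat cell markers 5 fell and 3 rose; Adipoq read 5.94, 7.09 and 7.02 and 4.25, 4.20 and 4.11, and Retn fell by 1.76 while Thrsp rose by 1.81. Adipoq, Hdc and Tpsb2 were lowest on fetal replicate 1 among the fetal arrays. Of 12 skin markers 3 fell and 1 rose, and Krt5 read 8.15, 5.97 and 5.74 and 5.47, 5.20 and 5.30; its fall of 1.29 was 0.53 without fetal replicate 1, and its call was lost without any 1 of the aged arrays. Krt1 and Krt10 fell, with differences of -1.58 and -0.40 and Trp63 rose by 0.71. The call on Krt10 was lost without fetal replicate 1 or 2 and without aged replicate 2 or 3, that on Krt1 with values floored at 6 and that on Trp63 with replicates 2 and 3 averaged. Of 15 tendon and cartilage markers 6 fell and 2 rose, with Tnmd and Mkx, both of tendon, at -2.10 and 1.05, and the cartilage and bone genes Acan and Ibsp at -0.90 and -1.28. Neither Acan nor Ibsp passed with values floored at 6, and 4 of the 15 markers were at receptor level in both groups.

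Of 13 neutrophil markers 2 rose and 1 fell, and 11 were at receptor level in both groups. Ltf and Mmp8 differed by 0.28 and -0.54. Both lost the call with values floored at 6, with replicates 2 and 3 averaged and without fetal replicate 3. The call on Ltf was also lost in most other leave-one-out fits. Among lymphocyte and plasma cell markers Ms4a1, Cd79b and Xbp1 rose by 1.07, 0.81 and 0.59, and Sdc1, which myogenic cells also express, fell by 1.42. Ms4a1 did not pass with values floored at 6, and 11 of the 19 markers of this list were at receptor level in both groups. Of 11 Schwann and glial markers 3 rose and 2 fell, with Mbp and Cdh19 up by 1.13 and 1.29 and Erbb3 at -1.43. Cdh19 did not pass with values floored at 6, and 3 of the 11 markers were at receptor level in both groups. Of 5 sex-linked genes 0 passed, and Xist, which marks female cells, read 11.42, 11.41 and 11.41 in fetal and 11.51, 11.82 and 11.75 in aged cells (adjusted p = 0.322). The part of these other cells in the differences described above was not tested.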

How the data were processed

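Per the submitters' processing notes, the authors used Affymetrix Expression Console 1.2.1.20 and its RMA summary, and the log2 values they deposited were taken as they stand. Per the labels' protocols, 100 ng of RNA went into the Ambion WT kit. The number of arrays limits the precision. The genome build behind the probe sets is not given in the sources used here.

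Of 35556 probe sets 21789 had 1 gene symbol in the platform annotation, 1621 had several and 12146 were not named here. For 999 of the 19938 genes the brightest of several probe sets was used, and for 1 gene such probe sets were called in opposite directions. A linear model of all 12 arrays estimated 4 stage means (limma 3.58.1, R 4.3.3, moderated variances, 8 residual degrees of freedom). P-values of aged minus fetal were adjusted by Benjamini-Hochberg over 19938 genes. An exact permutation test of 3 arrays against 3 could not pass 0.05, so none is given. The fit was first tested on simulated data.

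Members and lists were chosen with earlier results of these data known, so lists are described without a test. Of 1214 list names 1133 were measured. Genes named are the 12 largest rises and 12 largest falls among genes that passed without overlap and averaged 6 or more in the group where they were higher, the 4 list members with the lowest p among those that passed, 24 fixed genes, and the 6 largest rises and 6 largest falls from adult to aged cells among genes that passed in both comparisons. The largest changes exclude predicted genes, RIKEN clones, small RNAs and olfactory, vomeronasal and antigen receptors. Other genes were picked after their values were seen, as stated beside them. Deviations of equally numbered fetal and aged replicates from their group means correlated at -0.04, -0.28 and 0.10, and the numbers were not taken as pairs. Promoters and microRNAs were matched by symbol to RefSeq (GRCm38.p6).

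Alternatives were a further quantile normalization, centring of arrays, a floor at 6, a filter on dim genes, the mean of probe sets, all probe sets, other sets of arrays, trended and robust variance, array weights, a block for the replicate number, testing against 1.5-fold, the average of replicates 2 and 3, and leaving out each fetal and aged array.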

Additional observations from a re-analysis of the deposited data

How the results depend on the processing

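The count of genes that passed, 7138, was within 1.5 times of that value under further quantile normalization (7585), centring (7159), a floor at 6 (5943), a filter on dim genes (6844), the mean of probe sets (7133), all probe sets (9320), the 6 fetal and aged arrays alone (7449), without the adult arrays (8194), without adult replicate 1 (8537) and with trended variance (7157). With the replicate number as a block 6831 genes passed (3095 higher, 3736 lower), and 387 in both comparisons with the same sign; the numbers do not pair the samples. Without 1 fetal or aged array at a time 5893 to 6928 passed, 2694 to 3375 higher and 3154 to 3553 lower, with 2251 to 2389 at least 2-fold. Midpoints then fell by P21 for 2909 to 3314 genes, by 2 to 3 months for 2493 to 2795 and later for 422 (without aged replicate 2) to 1120 (without aged replicate 1), and 166 to 1245 genes passed in both comparisons with the same sign. That last count was 316 over all probe sets and 1770 without adult replicate 1.

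Larger shifts came from the remaining settings. Array weights, whose estimate did not converge, gave 12241 passed genes (5697 higher, 6544 lower; midpoint by P21 5736, after 2 to 3 months 2017; same sign in both comparisons 5786). The test against a 1.5-fold change gave 2152 (1062 higher, 1090 lower; midpoints 1152, 893 and 107; same sign 12). Replicates 2 and 3 averaged gave 4140 (1894 higher, 2246 lower; midpoints 2106, 1797 and 237; same sign 2), with fewer samples. Of 218 named genes that passed, 39 lost the call in at least 1 setting and 0 turned in direction, over 4351 values. Beside those given above, the floor at 6 ended the calls on Adipoq, C7, Egr2, Jchain, Krt5, Krt10, Lcn2, Rassf9 and Tbx5. Replicates 2 and 3 averaged ended those on Cd79b, Fdft1, Jchain, Krt5, Krt10, Ppia and Sdha. Leaving out fetal replicate 1 ended those on Egr2 and Ltf. Of 2000 list counts 1752 were within 1.5 times of the value given. Genes at receptor level, 1132 of those that passed, have folds limited by background.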
